A study of Homo sapiens with 8 samples.

Results

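The small RNAs of H1299 cells that carry mutant p53 R273H were compared with those of empty-vector (EV) H1299 cells after both lines had been exposed to etoposide. H1299 cells come from a human non-small cell lung carcinoma and are null for p53. The R273H line came from colonies that resisted G418 after H1299 cells were transfected with a pCMV vector that drives the mutant cDNA (whether it is 1 clone is not stated), and the EV line had received an empty vector in another laboratory, so the lines differ in origin together with the transgene. The published work found the lines isogenic by short tandem repeat profiles. Both lines were at passages 15 to 20 and were kept with etoposide for 24 h. Its dose is given as 10 µM in one label and as 10 mM in another. The comparison holds 4 of the 8 libraries of the series, 2 EV etoposide and 2 R273H etoposide libraries. The published work calls the replicates biological, and the labels do not say whether they came from separate cultures, so the p-values measure the spread between these libraries. All features named as human miRNAs or as tRNAs were taken. The series lists 945 miRNA and 274 tRNA features, and 792 and 247 of them had a read in at least 1 of the 4 libraries.

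MicroRNAs are short RNAs cut from hairpin precursors, and each arm of a hairpin can be loaded into an Argonaute protein and then represses mRNAs that pair with its seed, bases 2 to 8. Etoposide traps topoisomerase II on DNA and leaves double-strand breaks. In cells with wild-type p53 such breaks switch on p53, which induces the miR-34 genes, aids the processing of several precursors such as miR-16 and induces arrest or death. The R273H protein has lost contact with DNA at p53 sites and is known for gained functions in cancer cells. Neither line makes wild-type p53. Reads on tRNA features come from tRNA or from fragments cut from it, some of which accumulate under stress.

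The sequences of the miRNAs that carry the comparison are shown first, so that families can be told from single miRNAs. Of the 63 miRNAs that differed between the lines, 57 matched a mature sequence of RefSeq (GRCh38.p14), and 2 seeds were shared by more than 1 of them. Capitals mark the seed. The first seed belongs to the miR-17 family, of which 3 members were higher in R273H, and miR-18a-5p comes from the same transcript as miR-17 and miR-20a.
miR-17-5p: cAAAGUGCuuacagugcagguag
miR-20a-5p: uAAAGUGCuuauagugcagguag
miR-106a-5p: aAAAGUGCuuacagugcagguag
miR-18a-5p: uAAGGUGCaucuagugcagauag
The second is the seed of the miR-29 family, of which 2 members were higher, while miR-29a-3p did not pass the test.
miR-29b-3p: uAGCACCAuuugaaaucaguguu
miR-29c-3p: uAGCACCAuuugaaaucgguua
miR-29a-3p: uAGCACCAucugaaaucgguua
The next 3 had the smallest p-values of the miRNAs higher in R273H.
miR-590-3p: uAAUUUUAuguauaagcuagu
let-7a-3p: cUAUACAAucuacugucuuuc
miR-324-5p: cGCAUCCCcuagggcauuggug
The last set was lower in R273H, some of it to 1 or 0 reads, and includes both arms of miR-378a and of miR-9.
miR-708-5p: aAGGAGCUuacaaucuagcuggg
miR-3192-3p: cUCUGAUCgcccucucagcuc
miR-376c-3p: aACAUAGAggaaauuccacgu
miR-376a-3p: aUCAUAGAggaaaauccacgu
miR-378a-3p: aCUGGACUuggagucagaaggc
miR-378a-5p: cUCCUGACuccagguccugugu
miR-9-5p: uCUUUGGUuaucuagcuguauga
miR-9-3p: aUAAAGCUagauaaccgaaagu
The sequences of miR-17-5p, miR-20a-5p and miR-106a-5p are alike over most of their length, as are those of miR-376a-3p and miR-376c-3p, so that their reads may have been shared out by the aligner. Their single values are uncertain to that extent.

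The reads on annotated features numbered 234545 and 398728 for EV etoposide and 530989 and 366537 for R273H etoposide. Between 458 and 579 miRNAs had a read in a library. Of all miRNA reads, 30.6% to 44.5% were miR-21-5p. Spearman's rho between replicates, across features, was 0.915 in EV and 0.968 in R273H. The share of tRNA among miRNA and tRNA reads was 8.66% and 8.81% in EV but 4.35% and 4.54% in R273H. The deposited values were turned back into whole reads and the 4 libraries were scaled together by the trimmed mean of M values (TMM), and all normalized counts below are on this scale. The TMM factors were 1.22 and 0.731 in EV and 0.838 and 1.34 in R273H, so the replicates of a line were scaled apart. miRNAs of other tissues were rare. The 6 blood cell marker features summed to 27 and 12 reads in EV against 14 and 14 reads in R273H, and of these miR-142-3p had at most 1 read in a library. Liver and muscle markers had 7 reads or fewer in a library. Neural markers other than miR-9 held 62 and 53 reads in EV against 105 and 90 in R273H. These marker reads are not scaled, so the lines cannot be compared on them directly. On the normalized scale 1 read stood for 1.29 and 1.26 in the EV libraries but for 0.824 and 0.747 in the R273H libraries. The cDNA of p53 is not measured in small RNA, so the transgene itself could not be checked.

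Under etoposide, 97 of the 457 features tested differed between R273H and EV at an adjusted p-value under 0.05 (21.2%, quasi-likelihood test of edgeR with Benjamini-Hochberg adjustment over miRNAs and tRNAs together). Of these, 41 were higher (8.97% of those tested) and 56 were lower (12.3%) in R273H. The 582 features with a read that fell below a mean of 3 scaled reads were not tested. At an unadjusted p-value under 0.05 and a change of at least 2-fold, the criteria that the study used for untreated cells, 124 features passed (27.1%), of which 54 were higher. The median log2 change (log2 of the fold change, R273H over EV, given with its standard error, SE) of all features was 0.04. In bulk RNA, fewer cells of a kind and less RNA in each cell cannot be told apart. It was 0.22 when the libraries were scaled by their totals alone, where 29 features were called, 9 higher and 20 lower. The smallest exact permutation p for 2 libraries against 2 is 0.333, which is why the model over all features supplied the p-values. The groups did not overlap for 95 of the 97 called features, against 256 of all 457 (56%).

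**Figure D1:**
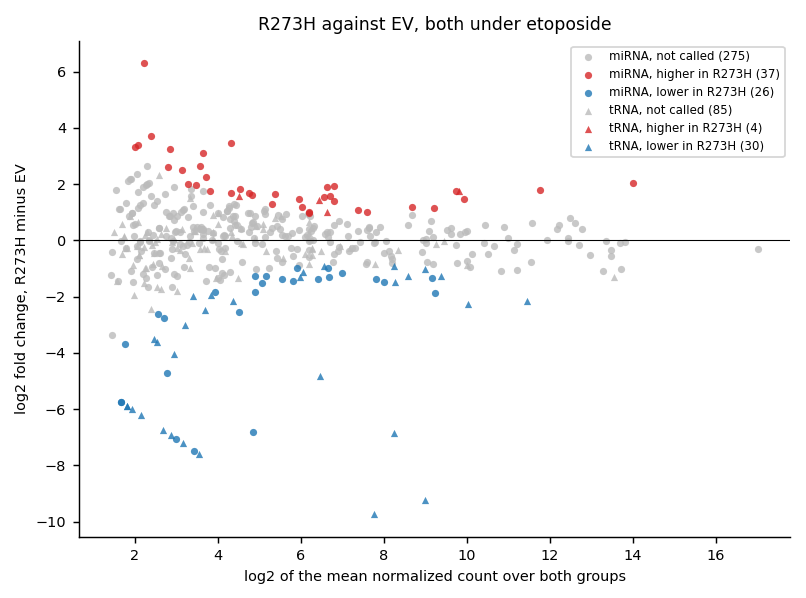
The log2 change (R273H minus EV, both under etoposide) is plotted against the log2 of the mean normalized count for the 457 tested features, with circles for miRNAs, triangles for tRNA features, red for higher and blue for lower in R273H at an adjusted p-value under 0.05. The 30 lower tRNA features include the largest changes, down to -9.73, and points at -5.7 or below with low means are features with 0 or 1 reads in R273H, whose fitted change depends on the prior count.

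The miRNAs and the tRNA features did not divide alike. Of 338 miRNAs tested, 37 were higher (10.9%) and 26 lower (7.69%) in R273H. Of 119 tRNA features tested, 4 were higher (3.36%) and 30 lower (25.2%). The median log2 change was 0.22 over miRNAs and -0.36 over tRNA features. The excess of higher miRNAs depended on the scaling. With DESeq2 size factors 31 miRNAs were higher and 30 lower, with a fit of all 8 libraries 28 and 33, and with TMM factors computed from miRNAs alone 22 and 43. The tRNA features leaned to lower values under each scaling that included them, with 1 higher and 13 lower where the fewest were called, on library totals alone.

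The number of calls depended on single libraries. Without R273H etoposide replicate 1, 17 features were called, and without R273H etoposide replicate 2, 20 were called. Without EV etoposide replicate 2 there were 52, and without EV etoposide replicate 1 there were 123. A library left alone in its group was then taken to vary like the other group. Of the 97 calls themselves, 77 were kept without EV etoposide replicate 1, 46 without EV etoposide replicate 2, 17 without R273H etoposide replicate 1 and 20 without R273H etoposide replicate 2. Just 12 were kept with each of the 4 left out in turn, and the other 85, among them each called feature named below that is not one of the 12, were lost or fell below the filter without at least 1 library. With the replicate number as a block 22 features were called, although the labels give no link between libraries of the same number. Calls that hold in each of the alternatives, the 4 left-out libraries and the block included, were made for 9 features. They are the miRNAs miR-708-5p, miR-3192-3p and let-7a-3p and the tRNA features chr6.trna113-AlaTGC, chr14.trna9-AlaAGC, chr11.trna11-LysTTT, chr6.trna163-IleAAT, chr6.trna38-IleAAT and chr1.trna33-GlyGCC. They were picked out after their values were seen. The other 3 of the 12 were miR-590-3p, miR-376c-3p and chr6.trna54-ThrCGT.

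miR-590-3p, from the hairpin MIR590 (chromosome 7, 73605528 to 73605624, GRCh37, in an intron of EIF4H), had the smallest p-value among the miRNAs higher in R273H. Its normalized counts were 49.0 and 44.1 in the EV libraries and 155 and 199 in the R273H libraries. Both R273H libraries lay above both EV libraries, with a log2 change of 1.93 (SE 0.37, adjusted p = 9.58e-06, edgeR). The other arm, miR-590-5p, had 1054 and 1203 against 1761 and 1547 (log2 change 0.55, adjusted p = 0.378). let-7a-3p is the passenger strand of let-7a, a family that represses growth genes such as RAS and MYC. It had 1.29 and 5.04 normalized counts in EV, from 1 and 4 reads, and 41.2 and 32.1 in R273H. The groups were far apart, with a log2 change of 3.48 (SE 0.67, adjusted p = 1.13e-05, edgeR). The guide strand let-7a-5p had 6533 and 12442 against 7934 and 5153, and its groups overlapped (log2 change -0.54, adjusted p = 0.57). let-7a-3p is made from 2 genes with the same mature sequence, so the change cannot be given to one of them.

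miR-324-5p comes from MIR324 (chromosome 17, 7126616 to 7126698, GRCh37), opposite to an intron of ACADVL. It had 50.3 and 34.0 normalized counts in EV and 195 and 122 in R273H. R273H was higher in both libraries, with a log2 change of 1.90 (SE 0.37, adjusted p = 1.34e-05, edgeR). Its call was lost without R273H etoposide replicate 1 (adjusted p = 0.0943). miR-324-3p had 43.8 and 23.9 against 32.2 and 41.8 and overlapped (log2 change 0.13, adjusted p = 0.889). miR-582-5p, from an intron of PDE4D (MIR582, chromosome 5, 58999432 to 58999529), was rare. It had 2 reads in each EV library, 2.58 and 2.52 normalized counts, and 21.4 and 23.9 in R273H. The log2 change was 3.09 (SE 0.78, adjusted p = 0.00126, edgeR), and without an R273H library the adjusted p was 0.0746 or 0.124. miR-365a-3p, from the miR-193b host gene MIR193BHG (MIR365A, chromosome 16, 14403142 to 14403228), had 28.4 and 11.3 normalized counts in EV and 70.9 and 55.3 in R273H (log2 change 1.66, SE 0.44, adjusted p = 0.00224, edgeR). It kept its direction but not its call when EV etoposide replicate 2, R273H etoposide replicate 1 or R273H etoposide replicate 2 was left out, with adjusted p = 0.072, 0.248 and 0.0946.

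**Figure D2:**
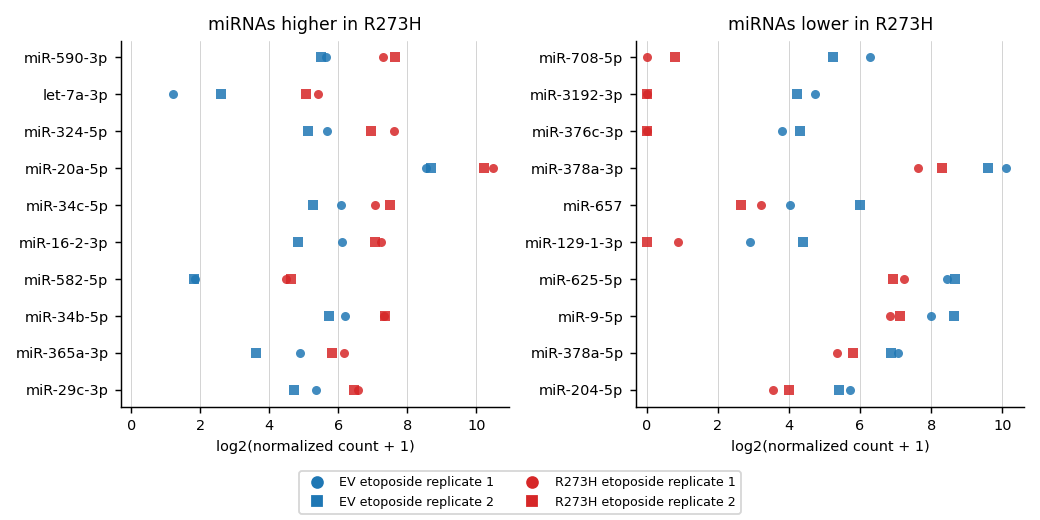
Each point is the log2(normalized count + 1) of 1 library for 10 higher and 10 lower miRNAs, those of smallest p among called miRNAs whose groups do not overlap, in blue for EV and red for R273H, circles for replicate 1 and squares for replicate 2. The 4 points of a row are separated by line in all 20, and miR-708-5p, miR-3192-3p and miR-376c-3p lie at or near 0 in R273H.

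The miR-17-92 cluster is an oncogenic miRNA cluster driven by MYC and E2F that promotes proliferation. Of the 13 features listed under its miRNA names 10 were tested, and 3 were higher in R273H and none lower. The higher share was 30%, against 8.97% of all features and 10.9% of miRNAs. The median log2 change was 0.69, against 0.04 over all features and 0.22 over miRNAs. miR-18a-5p, which also represses the DNA damage kinase ATM, had 1562 and 1552 normalized counts in EV and 5890 and 4934 in R273H. The EV libraries were nearly equal and the R273H libraries were both far above them (log2 change 1.80, SE 0.50, adjusted p = 0.00367, edgeR). miR-20a-5p had 375 and 412 against 1442 and 1184, with a log2 change of 1.74 (SE 0.40, adjusted p = 0.00034, edgeR). miR-17-5p had 619 and 426 against 1421 and 1468, with a log2 change of 1.47 (SE 0.40, adjusted p = 0.00331, edgeR). These 3 arms were the called ones. miR-19b-3p and miR-92a-3p are each made from 2 genes, so their reads cannot be given to this cluster alone. miR-19a-3p, miR-19b-3p and miR-92a-3p had log2 changes of 0.63, 0.41 and 0.70 and adjusted p-values of 0.378, 0.673 and 0.17, and miR-17-3p, the other arm of miR-17-5p, had -0.07. The calls for the 3 arms held under each scaling. Of the 10 features, 1 was called without EV etoposide replicate 2, 0 without R273H etoposide replicate 1, 1 without R273H etoposide replicate 2 and 0 with the replicate block.

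The paralogous miR-106a-363 and miR-106b-25 clusters added 1 higher feature of 8 tested (12.5%, against 8.97% of all features). miR-106a-5p had 7.74 and 1.26 normalized counts in EV and 36.3 and 7.47 in R273H, so that the groups overlapped, although its log2 change was 2.25 (SE 0.70, adjusted p = 0.0106, edgeR). Without R273H etoposide replicate 1 it was 0.73 (adjusted p = 0.864). Summed over the 6 tested miRNAs with this seed, the log2 ratio of the group means was 0.72, and the groups did not overlap. The abundant members miR-106b-5p and miR-93-5p had log2 changes of 0.62 and 0.56 with adjusted p-values of 0.469 and 0.5.

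The miR-34 genes are the best known miRNA targets of wild-type p53, and miR-34b and miR-34c share a transcript on chromosome 11 (MIR34B, 111383663 to 111383746, GRCh37, in an exon of MIR34BHG). miR-34c-5p had 67.1 and 37.8 normalized counts in EV and 132 and 178 in R273H. Both R273H libraries were higher, with a log2 change of 1.57 (SE 0.36, adjusted p = 0.000407, edgeR). miR-34b-5p had 72.2 and 51.6 against 160 and 163 (log2 change 1.38, SE 0.36, adjusted p = 0.00196), and miR-34b-3p had 10.3 and 10.1 against 34.6 and 38.1 (log2 change 1.82, SE 0.54, adjusted p = 0.00696). miR-34a-5p, made from a gene of its own on chromosome 1, had 56.7 and 40.3 in EV and 46.2 and 62.7 in R273H. These overlapped, and its log2 change was 0.17 (SE 0.39, adjusted p = 0.825, edgeR). The features of the miR-34b and miR-34c transcript with enough reads for the test were miR-34b-5p, miR-34b-3p and miR-34c-5p. All 3 were called higher in R273H, against 10.9% of all tested miRNAs. With the replicate block the miR-34b arms were not called, and on library totals alone none of the 3 was. Each lost its call when R273H etoposide replicate 2 was left out, with adjusted p-values of 0.124 to 0.252, while the log2 changes stayed at 1.28 or above.

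Among the 16 names of a list of miRNAs that wild-type p53 induces or helps to process, 22 features were in the series and 16 were tested. Of these, 6 were higher in R273H and none lower (37.5% higher, against 8.97% of all features and 10.9% of miRNAs). The median log2 change was 0.84, against 0.04 over all features and 0.22 over miRNAs. Besides the 3 features of miR-34b and miR-34c, they were miR-16-2-3p, miR-15a-5p and miR-22-5p. miR-16-2-3p, the passenger strand of MIR16-2 in SMC4 (chromosome 3, 160122533 to 160122613), had 68.3 and 27.7 normalized counts in EV and 149 and 133 in R273H (log2 change 1.55, SE 0.37, adjusted p = 0.000561, edgeR). miR-15a-5p, which targets BCL2, had 277 and 229 against 531 and 615 (log2 change 1.18, SE 0.36, adjusted p = 0.0093). miR-22-5p had 101 and 156 against 306 and 208 (log2 change 1.00, SE 0.35, adjusted p = 0.0248). Other members did not pass the test. The guide miR-16-5p had 4358 and 3947 in EV against 8255 and 6225 in R273H (log2 change 0.80, adjusted p = 0.308), and miR-192-5p, miR-107 and miR-145-5p overlapped. Of the 16 features 11 had a positive log2 change, and the lowest value was -3.35. Among those that pointed the other way was miR-194-5p, with 41.3 and 40.3 against 14.8 and 25.4 (log2 change -1.01, adjusted p = 0.104, edgeR). So did miR-143-3p, with 6 and 2 reads in EV against 0 and 1 reads in R273H. With TMM factors computed from miRNAs alone 5 were higher and 1 lower. The count of 6 was 5 with DESeq2 size factors, 3 with the DESeq2 test, 2 with the replicate block and 1 on library totals alone. It was 1 without each of EV etoposide replicate 2, R273H etoposide replicate 1 and R273H etoposide replicate 2.

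The miR-29 family represses collagens and DNA methyltransferases. Its most abundant member here, miR-29b-3p, had 9830 and 3088 normalized counts in EV and 34473 and 18408 in R273H. The EV libraries differed by more than 3-fold from each other, and still both lay below both R273H libraries. The log2 change was 2.03 (SE 0.69, adjusted p = 0.0199, edgeR), and the call was lost without EV etoposide replicate 2 (adjusted p = 0.425), R273H etoposide replicate 1 (0.364) or R273H etoposide replicate 2 (0.301). The miR-29b-3p call was also lost with DESeq2 size factors, upper-quartile factors, limma with a pseudocount of 1 and the replicate block. miR-29c-3p had 40.0 and 25.2 against 94.8 and 87.4, with a log2 change of 1.48 (SE 0.39, adjusted p = 0.0023, edgeR). Its call was lost without the same libraries (adjusted p = 0.0577, 0.174 and 0.124). miR-29a-3p, with the same seed, had 3725 and 7057 against 6730 and 4569 and overlapped (log2 change 0.07, SE 0.53, adjusted p = 0.954). The sum of the 3 guides was higher in both R273H libraries, with a log2 ratio of the group means of 1.44. miR-29b-3p is encoded by MIR29B1 and MIR29B2, whose reads cannot be told apart.

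A list of 15 miRNAs known to act on DNA repair and checkpoint genes had 24 tested features, of which 5 were higher (20.8%, against 8.97% of all features) and 1 lower (4.17%, against 12.3%). Their median log2 change of 0.22 was that of all miRNAs. Without EV etoposide replicate 2 or R273H etoposide replicate 1 none was higher, and without R273H etoposide replicate 2 or with the replicate block 1 was. The higher ones were miR-29b-3p, miR-29c-3p, miR-18a-5p, miR-16-2-3p and miR-103a-2-5p, and 4 of these stand in other groups above. The lower one was miR-138-5p, which represses the histone H2AX, with 142 and 86 reads in EV against 70 and 81 reads in R273H (log2 change -1.30, SE 0.36, adjusted p = 0.00331, edgeR). Of miRNAs that target the mRNA of p53 itself, 11 features were tested, none was higher and 2 were lower, a share of 18.2% that is near the 12.3% of all features. None was called without either R273H library or with the replicate block. They were miR-30d-5p, with 720 and 926 against 326 and 322 (log2 change -1.35, SE 0.38, adjusted p = 0.00367), and miR-125b-1-3p, with 60.6 and 41.6 against 19.8 and 22.4 (log2 change -1.27, SE 0.44, adjusted p = 0.025). The latter is the passenger strand of MIR125B1, and the targeting is known for the guide. That guide, miR-125b-5p, had 2801 and 3640 against 1845 and 1237 and missed the threshold (log2 change -1.06, adjusted p = 0.081). Among 6 miRNAs tied to mutant p53 in earlier work, 1 of 7 tested features was higher (14.3%, against 8.97% of all features) and none lower. miR-128-3p had 268 and 474 normalized counts in EV and 1029 and 598 in R273H (log2 change 1.13, adjusted p = 0.0177, edgeR). Its call was lost with DESeq2 size factors and with each single library left out, with adjusted p-values of 0.0646 to 0.497.

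miR-708-5p was the miRNA with the smallest p-value of all. MIR708 (chromosome 11, 79113066 to 79113153, minus strand, GRCh37) sits within an intron of TENM4, and its 5p arm resembles miR-28-5p and miR-151a-5p. It had 60 and 29 reads in EV, 77.4 and 36.5 normalized counts, against 0 and 1 read in R273H. With 1 read in R273H the ratio of EV to R273H was 145, with an exact 95% interval of 25.3 to 5779 that covers counting error only. The adjusted p was 3.47e-15 (edgeR), and it was called in each alternative. The other arm, miR-708-3p, had 1 and 0 reads in EV against 2 and 5 reads in R273H, too few to be tested. miR-28-5p and miR-151a-5p had log2 changes of 0.94 and 0.07 (adjusted p = 0.12 and 0.95), and their 3p arms did not pass the test either. miR-3192-3p, from an intron of POLR3F (MIR3192, chromosome 20, 18451259 to 18451335), had 20 and 14 reads in EV but 0 reads in each R273H library. Against a limit of 3 reads in each library it was at least 9.21-fold lower in R273H (adjusted p = 3.37e-07, edgeR).

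The imprinted 14q32 cluster, a large maternally expressed set of miRNAs, had hardly a read in R273H. Of its 26 features, 20 had a read, and the sum of their reads was 35 and 29 in EV against 2 and 4 in R273H. The 3 features that passed the filter were all lower. They passed through the EV libraries, where they are high, so their median adds nothing. miR-376c-3p (MIR376C, chromosome 14, 101506017 to 101506102) had 10 and 15 reads in EV but 0 reads in each R273H library, at least 6.74-fold lower (adjusted p = 1.34e-05, edgeR). miR-134-3p (MIR134, chromosome 14, 101521008 to 101521110) had 7 and 3 reads against 0 and 0, at least 2.72-fold lower (adjusted p = 0.00859). miR-376a-3p had 8 and 2 reads against 0 and 1, a ratio of EV to R273H of 16.3 (exact 95% interval 2.31 to 706, adjusted p = 0.0366). For miR-134-3p and miR-376a-3p the adjusted p rose to between 0.158 and 0.364 without an R273H library, and without EV etoposide replicate 1 both fell below the filter. The largest placental cluster, C19MC, had 3 features with a read and none that could be tested.

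Of the hairpins tested on both arms, 89 in all, 65 had arms of the same sign. Both arms were called in 5, and in 4 of these they moved together. miR-378a lies in an intron of PPARGC1B (MIR378A, chromosome 5, 149112388 to 149112453), a coactivator of mitochondrial genes. miR-378a-3p had 1109 and 777 normalized counts in EV and 198 and 318 in R273H, a log2 change of -1.87 (SE 0.38, adjusted p = 3.95e-05, edgeR). miR-378a-5p had 133 and 116 against 39.6 and 55.3, with -1.39 (SE 0.36, adjusted p = 0.00214). Both arms were lower by a like amount. Without R273H etoposide replicate 1 the adjusted p was 0.105 for the 3p arm and 0.248 for the 5p arm, and without R273H etoposide replicate 2 it was 0.0192 and 0.054.

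miR-9, a miRNA of neural tissue that is also made in some carcinomas, was lower on both arms as well. miR-9-5p had 255 and 395 normalized counts in EV and 113 and 138 in R273H (log2 change -1.37, SE 0.35, adjusted p = 0.00156, edgeR). miR-9-3p had 56.7 and 79.4 against 28.0 and 23.9 (log2 change -1.39, SE 0.41, adjusted p = 0.00674). miR-625, from an intron of FUT8 (chromosome 14, 65937820 to 65937904), had -1.47 on the 5p arm, with 348 and 403 against 150 and 122 (SE 0.35, adjusted p = 0.000688). Its 3p arm had -1.45, with 108 and 55.4 against 31.3 and 28.4 (SE 0.39, adjusted p = 0.00301). On each of these arms both EV libraries lay above both R273H libraries. The calls of miR-9-5p and of miR-625-5p were lost without either R273H library, with adjusted p-values of 0.0621 to 0.175. Those of miR-9-3p (adjusted p = 0.195 and 0.2) and of miR-625-3p (0.167 and 0.149) were lost likewise. The call of miR-9-5p was also lost without EV etoposide replicate 2 (adjusted p = 0.0744).

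The hairpin called in opposite directions was miR-146a, named here because its values stood out. miR-146a is a negative regulator of NF-kB signalling. miR-146a-5p had 0 reads in both EV libraries and 11 and 13 reads in R273H, at least 2.46-fold higher (adjusted p = 0.00337, edgeR). miR-146a-3p had 7 and 9 reads in EV against 3 and 1 reads in R273H, with a log2 change of -2.60 (SE 0.96, adjusted p = 0.0352). At so few reads both rest on small numbers. miR-146b-5p has the same seed and differs from miR-146a-5p only near the end, so reads may have been shared between them. Their summed normalized counts were 18.05 and 18.89 in EV and 18.96 and 18.67 in R273H, and the groups overlapped. The log2 ratio of the group means was 0.027. The higher call of miR-146a-5p, and with it the opposite direction of the arms, is uncertain to that extent. Of the 18 hairpins with 1 called arm, the other arm had the same sign in 13. Among those where it did not were let-7a, miR-17 and miR-301a. miR-301a-5p, an arm of MIR301A in an intron of SKA2, had 5 and 0 reads in EV against 26 and 27 reads in R273H (log2 change 2.66, adjusted p = 0.00469, edgeR), while miR-301a-3p had a log2 change of -0.11 (adjusted p = 0.911).

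Of the other miRNAs lower in R273H, miR-204-5p, from an intron of TRPM3 (MIR204, chromosome 9, 73424891 to 73425000), had 51.6 and 41.6 normalized counts in EV and 10.7 and 14.9 in R273H. Its groups were well apart (log2 change -1.84, SE 0.49, adjusted p = 0.00219, edgeR), although an R273H library left out took the adjusted p to 0.237 or 0.0946. miR-657, from AATK (MIR657, chromosome 17, 79099076 to 79099173), had 15.5 and 63.0 against 8.24 and 5.23, with a log2 change of -2.53 (SE 0.56, adjusted p = 0.000165). EV etoposide replicate 2 set much of that value, since the log2 change was -1.21 without it (adjusted p = 0.195). miR-129-1-3p had 5 and 16 reads in EV against 1 and 0 reads in R273H, a ratio of 34.1 (exact 95% interval 5.49 to 1412, adjusted p = 0.000634). Without EV etoposide replicate 2 it fell below the filter. miR-129-2-3p, nearly the same in sequence, went the other way, with 3 and 1 reads in EV against 14 and 6 reads in R273H. Reads may have been shared between these 2. Their summed normalized counts were 10.3 and 21.4 in EV and 12.4 and 4.48 in R273H, and the groups overlapped.

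Several abundant families did not show a difference that these libraries could resolve. None of the 8 tested features of the miR-23/27/24 clusters was called, with a median log2 change of -0.21, and none of the 6 of the miR-183 cluster, with 0.35. miR-21-5p, the most abundant miRNA, had 92121 and 202998 normalized counts in EV and 156045 and 79657 in R273H. The groups overlapped widely, and its log2 change of -0.32 had a SE of 1.06 (adjusted p = 0.887, edgeR). miR-31-5p had 13149 and 22868 against 10823 and 7035, with no overlap (log2 change -1.01, SE 0.64, adjusted p = 0.281). miR-23a-3p and miR-30c-5p overlapped, with log2 changes of -0.07 and -0.10. The let-7 family had 13 tested features, with a median of -0.54. Of these, let-7a-3p was higher (7.69%, against 8.97% of all features) and let-7d-5p lower (7.69%, against 12.3%). let-7d-5p had 69.6 and 90.7 against 41.2 and 39.6 (log2 change -0.99, adjusted p = 0.0472, edgeR). In the miR-99/100 and miR-125 group 1 of 9 was lower (11.1%, against 12.3% of all features), and the median was -1.06. With the fit of all 8 libraries 4 were lower. Of 8 tested features of the miR-30 family 1 was lower and 1 higher (12.5% each, against 12.3% and 8.97% of all features). The lower one was miR-30d-5p. The higher one was miR-30e-3p, with 18.1 and 10.1 against 42.9 and 42.6 (log2 change 1.60, adjusted p = 0.0102, edgeR). Neither was called on library totals alone or with the replicate block. The epithelial miR-200 family had at most 2 reads of any member in a library, and miR-205-5p, which had 5 reads in each EV library but 0 in R273H, was at least 2.70-fold lower (adjusted p = 0.00859).

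Some miRNAs were picked in the published work from the untreated libraries of the same lines, and the etoposide libraries had no part in that choice. The lists used here are the miRNAs paired there with target mRNAs that changed inversely, which are a part of the longer lists of changed miRNAs, and the longer lists were not analysed here. Of the 12 such miRNAs listed as higher in R273H, 7 were higher under etoposide and none lower (58.3%, against 8.97% of all features), with a median log2 change of 1.65. They were miR-590-3p, miR-324-5p, miR-20a-5p, miR-34c-5p, miR-582-5p, miR-29b-3p and miR-139-5p. miR-139-5p had 2.58 and 5.04 normalized counts in EV and 15.7 in each R273H library (log2 change 2.003, SE 0.77, adjusted p = 0.0457, edgeR). The other 5, miR-147b, miR-140-5p, miR-592, miR-16-5p and miR-132-3p, had log2 changes of 1.03, 1.24, 1.11, 0.80 and 0.29, and none passed the test. Of the 8 such miRNAs listed as lower, 4 were lower and none higher (50.0%, against 12.3%), with a median of -1.24. These were miR-708-5p, miR-625-5p, miR-9-5p and miR-30d-5p, while miR-125b-5p, miR-940, miR-151a-3p and miR-296-5p had log2 changes from -1.13 to -0.30. Of the 7 miRNAs also chosen there for qRT-PCR in untreated cells, 2 were higher (miR-324-5p and miR-139-5p) and 2 lower (miR-9-3p and miR-218-5p). Each share was 28.6%, against 8.97% of all features higher and 12.3% lower. miR-218-5p had 192 and 162 against 63.5 and 96.3 (log2 change -1.15, adjusted p = 0.00858). miR-20a-3p, miR-194-5p and miR-99a-5p had log2 changes of 0.69, -1.01 and -1.15 with adjusted p-values of 0.397, 0.104 and 0.139. Without R273H etoposide replicate 1, 2 of the first list and 1 of the second list were called, and without R273H etoposide replicate 2, 3 and 1. The qRT-PCR list then had 0 and 1 called.

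The tRNA features held the largest differences of the comparison. chr6.trna113-AlaTGC, a tRNA for alanine with anticodon TGC, had 672 and 919 reads in EV against 1 and 3 reads in R273H. On the normalized scale these were 867 and 1158 against 0.824 and 2.24, a log2 change of -9.23 (SE 0.60, adjusted p = 2.77e-45, edgeR). chr14.trna9-AlaAGC had 265 and 420 reads in EV against 1 and 0 reads in R273H, a ratio of 1114 (exact 95% interval 199 to 44057, adjusted p = 1.47e-44). chr11.trna11-LysTTT had 542 and 661 normalized counts against 5.77 and 4.48 (log2 change -6.85, SE 0.49, adjusted p = 8.01e-38). chr6.trna163-IleAAT had 188 and 154 against 6.60 and 5.23 (log2 change -4.83, SE 0.46, adjusted p = 8.97e-23). chr6.trna38-IleAAT had 20 and 17 reads in EV and none in R273H, at least 10.0-fold lower (adjusted p = 1.04e-07). Reads on these 5 features were all but absent in R273H, and each feature was called in each alternative that tested it.

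A genome holds many tRNA genes of nearly the same sequence, and reads can be shared between them, so sums over all features of an anticodon are given too. For AlaTGC the sum of 6 features was 890 and 1175 normalized counts in EV and 6.60 and 8.96 in R273H, and for the 5 of IleAAT it was 245 and 194 against 11.5 and 11.9. Reads on the listed features of both anticodons were nearly absent in R273H. The published work kept short reads only, so the amount of whole tRNA was not measured. For LysTTT, with 11 features, the sums were 1104 and 1305 against 300.1 and 246, and for AlaAGC, with 15 features, 494 and 640 against 148 and 178. Of the other LysTTT features, chr11.trna5-LysTTT was lower as well, with 516 and 577 against 248 and 208 (log2 change -1.26, adjusted p = 0.00494, edgeR). Of the other AlaAGC features, chr6.trna108-AlaAGC was higher in R273H, with 61.9 and 32.7 normalized counts in EV and 114 and 140 in R273H (log2 change 1.42, SE 0.37, adjusted p = 0.00196, edgeR). That call was lost with the DESeq2 test, on library totals alone, with the replicate block and without EV etoposide replicate 2 or either R273H library, where the adjusted p was 0.0809 to 0.168.

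Of 10 tested glycine features 2, both abundant, were lower in R273H and none was higher. The lower share was 20%, against 12.3% of all features and 25.2% of tRNA features. chr1.trna33-GlyGCC had 1358 and 2100 normalized counts in EV and 363 and 358 in R273H (log2 change -2.26, SE 0.42, adjusted p = 4.19e-06, edgeR). chr1.trna124-GlyCCC had 2487 and 6650 against 1087 and 955 (log2 change -2.16, SE 0.49, adjusted p = 0.000249). The latter lost its call without EV etoposide replicate 2 (adjusted p = 0.121), R273H etoposide replicate 1 (0.0826) or R273H etoposide replicate 2 (0.168). Of 8 tested glutamate features 4 were lower (50%, against 12.3% of all features and 25.2% of tRNA features). The count was 0 on library totals alone or with the replicate block. These 4 calls also leaned on single R273H libraries. chr13.trna3-GluTTC had 503 and 402 against 182.2 and 141.9 (log2 change -1.48, adjusted p = 0.000688) and chr1.trna54-GluCTC 965 and 904 against 353 and 423 (log2 change -1.27, adjusted p = 0.00761). The aspartate features held the most tRNA reads. Their sum was 12324 and 24170 normalized counts in EV and 9761 and 5177 in R273H. Of 4 tested features 2 were lower (50%, against 12.3% of all features and 25.2% of tRNA features). Neither of these was called without EV etoposide replicate 2, with adjusted p-values of 0.562 and 0.656.

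Of 14 tested valine features 3 were higher (21.4%, against 8.97% of all features and 3.36% of tRNA features). Just 1 was lower (7.14%, against 12.3% of all features and 25.2% of tRNA features). Yet 5 of the 14 had a positive log2 change, and the median was -0.17. With all 8 libraries in the fit 1 was higher and 1 lower, and with the replicate block none was called. chr11.trna17-ValTAC had 466 and 353 normalized counts in EV and 1740 and 1049 in R273H (log2 change 1.77, SE 0.40, adjusted p = 0.000297, edgeR). chr6.trna115-ValAAC had 12.9 and 10.1 against 37.9 and 30.6 (log2 change 1.57, SE 0.54, adjusted p = 0.0213). Both were higher in each R273H library. The sum over the ValTAC features was 950 and 1326 in EV and 2639 and 1591 in R273H. The ValAAC sum, with 1109 and 1202 against 1387 and 754, overlapped. Without R273H etoposide replicate 1 the adjusted p was 0.109 for chr11.trna17-ValTAC and 0.379 for chr6.trna115-ValAAC. The sum of all tRNA features was 26028 and 44055 in EV and 18989 and 12393 in R273H, a log2 ratio of the group means of -1.16. In the untreated libraries of the same lines, the share of tRNA among miRNA and tRNA reads was 6.95% and 3.76% in EV but 1.73% and 2.68% in R273H. The part of this overall share in the differences of single tRNA features was not tested.

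The same contrast in the untreated libraries, which share no library with the etoposide ones, called 84 of 414 features (20.3%). Across the 406 features tested in both, Pearson's r between the log2 changes was 0.84 and Spearman's rho was 0.75. These are descriptions across features of 1 pair of lines, and features are not independent replicates. Of the 97 features called under etoposide, 89 were tested untreated and 86 of these had the same sign. Called in both were 51, or 52.6% of those called under etoposide and 60.7% of those called untreated, each in the same direction. miR-708-5p had a log2 change of -5.59 untreated and chr6.trna113-AlaTGC one of -8.48.

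A further 38 features were called under etoposide and tested without a call in untreated cells, and the test of the difference between the contrasts is the interaction over all 8 libraries. It called 0 of 448 features (edgeR, smallest adjusted p = 0.51), with 18 at an unadjusted p-value under 0.05 (4.02%), and 0 with DESeq2 (8 at an unadjusted p-value under 0.05). A difference that depends on etoposide was therefore not detected for any feature with all libraries in the fit. Without EV etoposide replicate 1 there was 1. Of the features called under etoposide, 3 had the opposite sign untreated, and these are named for that. miR-451a, a blood cell marker, had 12 and 6 reads in EV against 3 and 1 reads in R273H under etoposide, against 8 and 3 and 5 and 14 without it (interaction log2 value -3.74, SE 1.14, unadjusted p = 0.00153, adjusted p = 0.51, edgeR). chr13.trna5-GluTTC had 29.7 and 151 normalized counts in EV and 48.6 and 24.6 in R273H, so that its groups overlapped and its lower call (log2 change -1.31, adjusted p = 0.00596) came from EV etoposide replicate 2, without which the log2 change was 0.29. chr11.trna16-ValTAC had a log2 change of 1.00 under etoposide (adjusted p = 0.0291) and of -0.21 untreated. miR-129-1-3p and miR-205-5p, with the next smallest interaction p-values, had adjusted p-values of 0.51 and 0.80. miR-592 had no read in untreated EV and 8 and 1 reads in EV under etoposide, where R273H had 15 and 17, and its log2 change of 5.87 untreated stood beside 1.11 under etoposide (interaction adjusted p = 0.827).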

How the data were processed

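Small RNA libraries of the 4 groups (EV and R273H, untreated or etoposide) were sequenced on an Ion PGM. The authors aligned the trimmed reads to miRBase, tRNA, rRNA and adapter sequences and to hg19, counted them and divided the counts by DESeq size factors. The deposited signal is therefore a scaled read count per feature, in 3 tables scaled separately. All values were whole multiples of 1 read (100%, tolerance 0.01 reads), so reads were recovered, absent rows set to 0 and the 4 etoposide libraries scaled together. edgeR 4.0.16 (TMM, glmQLFit, glmQLFTest) tested features with a mean of at least 3 scaled reads; limma 3.58.1 and DESeq2 1.42.0 in R 4.3.3 were alternatives. A fold change refers to R273H over EV, and its standard error is the log2 fold change divided by the root of F. A group at 0 was set to 3 reads in each library. Intervals are exact (Clopper-Pearson, 95%) and cover counting error only. The deposited tables of the authors' own fold changes and p-values were not used. Features were named by rank of p-value within direction, by membership of the gene lists and as the other arm of a named miRNA; these lists, the groups and the tests were chosen with earlier results of these data known. tRNA positions were not analysed here. Positions of miRNA genes follow the GRCh37 lift of GENCODE 44. The remaining steps used Python 3.11.15, pandas 2.3.3, scipy 1.17.1 and matplotlib 3.10.9. The fit was tested on simulated data. Depth, 234545 to 530989 reads, limits what can be said of features with a few reads.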

Additional observations from a re-analysis of the deposited data

How the results depend on the processing

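Of 97 features at an adjusted p-value under 0.05, between 17 and 123 were called when 1 library was left out. The lowest numbers came without R273H etoposide replicate 1 (17), R273H etoposide replicate 2 (20) and EV etoposide replicate 2 (52). Scaling by library totals alone gave 29 (9 higher, 20 lower) and the DESeq2 test 49 (13 and 36), and the other planned settings with no replicate block gave 65 to 98. The fit of all 8 libraries called 97, of which 30 were higher and 67 lower. With the replicate number as a replicate block there were 22. The labels give no link between libraries of the same number, and the deviations of the replicates from their group means correlated with r = -0.25. The crossed pairing as a block, added after the data were seen, gave 148 calls. At an unadjusted p-value under 0.05 and at least 2-fold, 124 features passed, against 66 on library totals alone, 162 without a filter, 87 with the replicate block and 83 to 146 with 1 library left out. The interaction had 0 calls, and between 0 and 1 with 1 library left out, the 1 without EV etoposide replicate 1, and 0 in the other settings, the replicate block included. Of 1183 values of the 78 named features that were called, 816 kept their call, 366 lost it and 1 changed direction, chr13.trna5-GluTTC (0.29 without EV etoposide replicate 2, and down to -2.17 with another library left out). The causes were not tested. Depth limits the features with 0 to 3 reads in a group, which have bounds or wide intervals. With 2 libraries a group most of the calls leaned on single libraries.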
